A study of Mus musculus with 3 samples.

Results

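Il1b-low mature neutrophils are the blood neutrophils of this series that carry few transcripts of Ly6g, Prok2, Ngp and Camp, which mark neutrophils fresh from the marrow, and little Il1b messenger RNA. The cells were selected on their own read-out: a droplet barcode with at least 200 genes and at most 10% of its unique molecular identifiers (UMIs, 1 per captured RNA molecule) from mitochondrial genes was taken as a neutrophil when S100a8 and S100a9 made up at least 3% of its UMIs, Csf3r and Cxcr2 gave at least 1 UMI, and Cd79a, Cd79b and Cd3e gave at most 2 UMIs. It was called mature when Ly6g, Prok2, Ngp and Camp together held under 0.1% of its UMIs, and Il1b-low when Il1b held under 0.2%. These limits gave 1256 cells, 836 in the library of barcode ending 2 and 420 in the library of ending 3, of 11763 cells that passed the filter in both libraries and 18885 in all 3 libraries. Mature neutrophils at or above the Il1b limit, called Il1b-high here, numbered 1608 and 323, and younger neutrophils, at or above the limit for Ly6g, Prok2, Ngp and Camp with any Il1b, numbered 832 and 1289.

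The leukocytes came from the blood of C57/BL6J mice that were sleep-deprived for 48 h (SD48h) or 24 h (SD24h) or were controls (Con, 0 h), after lysis of red cells, with 1 library per group and the leukocytes of 3 mice pooled in each. Their sex and age are not stated in the labels. The labels do not tie a barcode ending to a group, so libraries 2 and 3 are named by their ending, neither can be called a control, and no order in time is read from them. With 1 library per group there is no replicate and no test: ratios are between summed UMIs per 1000000 (CPM), on the log2 scale where so named, and their 95% intervals cover counting error only.

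Neutrophils leave the bone marrow with most of their granule proteins already made, and the messages of those proteins fade in the order of the granules, from the specific granules with Ngp, Camp and Ltf to the later gelatinase granules and secretory vesicles. In the blood the cells carry large stores of S100a8 and S100a9 messages, which encode the 2 chains of calprotectin, and they follow G-CSF through Csf3r and CXC chemokines through Cxcr2, while Cxcr4 marks cells that age and return to the marrow. Il1b encodes the precursor of interleukin-1 beta, which neutrophils and monocytes make on stimulation and which caspase-1 cleaves to its secreted form.

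The Il1b-low cells made up 14.0% (95% Clopper-Pearson interval 13.1 to 14.9) of filtered cells in library 2 and 7.26% (6.60 to 7.96) in library 3. As a share of mature neutrophils they made up 34.2% (32.3 to 36.1) in library 2 and 56.5% (52.9 to 60.1) in library 3. The Il1b share, which chose the cells, had no gap at its limit: 246 Il1b-low cells of library 2 lay between 0.150% and 0.2%, next to 212 Il1b-high cells between 0.2% and 0.250%, and library 3 held 67 and 62 such cells. At the limit for Ly6g, Prok2, Ngp and Camp, 96 Il1b-low cells lay just inside, at 0.0750% or more, and 91 younger cells with Il1b under 0.2% just outside, under 0.125%, in library 2, and 75 and 106 in library 3. At the S100a8 and S100a9 limit, 8 and 7 Il1b-low cells lay just above (under 3.75%) and 6 and 8 cells just below (2.25% or more). Il1b-low did not mean without Il1b. The median cell held 4 Il1b UMIs in library 2 and 3 in library 3, and no Il1b UMI was found in 86 of 836 cells (10.3%) and 79 of 420 cells (18.8%). Depth differed: the Il1b-low cells had medians of 3458 and 4771 UMIs in libraries 2 and 3, Il1b-high cells 2931 and 3394, and younger cells 4043 and 6190.

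**Figure D1:**
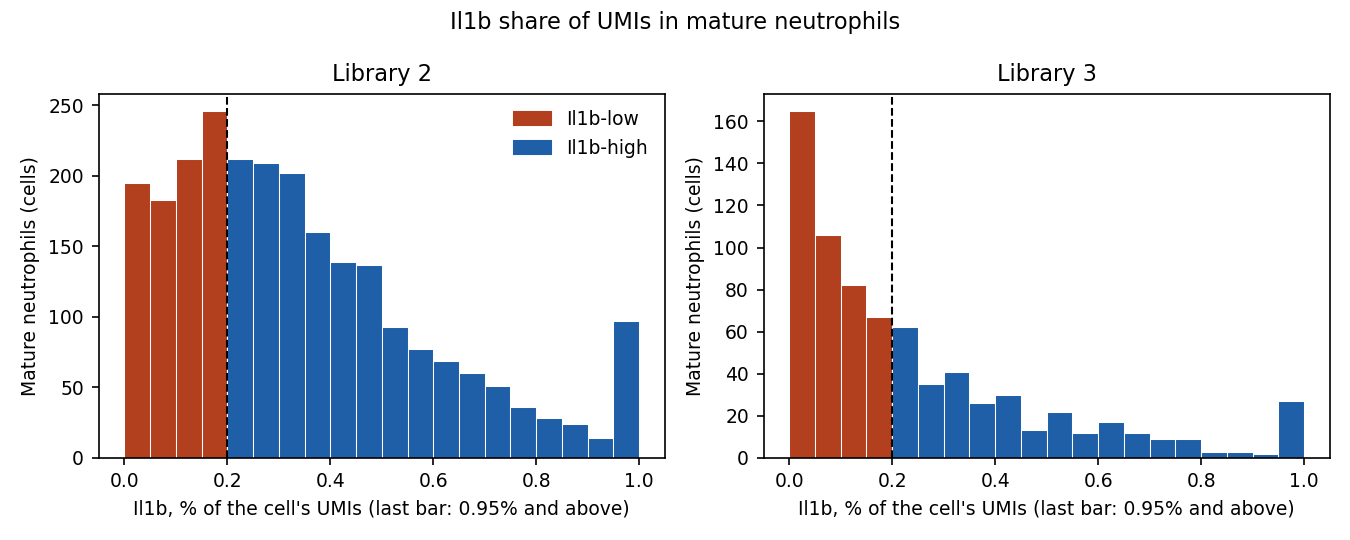
Il1b share of UMIs (x axis, percent, in steps of 0.05) against the number of mature neutrophils (y axis) in libraries 2 and 3, with the 0.2% limit dashed. The Il1b-low cells run into the Il1b-high cells without a gap in both libraries, with 246 and 212 cells either side of the limit in library 2 and 67 and 62 in library 3.

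All 12 neutrophil markers were found in the Il1b-low cells, at a summed 252183 CPM in library 2 and 258689 CPM in library 3. S100a8, S100a9, Csf3r and Cxcr2 are among the 12 and took part in the choice of the cells, so the sum is a description. Most of it came from S100a8 (102375 and 106968 CPM) and S100a9 (127657 and 123295 CPM). All 5 basophil and mast cell markers were at 0 UMIs in the Il1b-low cells of both libraries. Elane and Mpo, enzymes of the earliest granules of marrow precursors, were at 0 UMIs in both Il1b-low and Il1b-high cells. The other 8 of 10 immature neutrophil markers, among them Ly6g, Prok2, Ngp and Camp of the limits, were found in Il1b-low cells. The 10 summed to 6500 and 6680 CPM there, against 5915 and 4577 CPM in Il1b-high cells and 9176 and 13097 CPM in younger cells. Since Ly6g, Prok2, Ngp and Camp split mature from younger cells, the gap to younger cells was in part fixed by that choice. The 8 genes given as markers of the Il1b-low cells were all found, but most did not peak in them: without mixed barcodes (defined next), S100a8, S100a9, Mmp8, Wfdc21 and Dgat1 were higher in younger neutrophils in both libraries. After thinning each cell to 1000 UMIs, Mmp8 had a UMI in 61.9% of Il1b-low cells of library 2, against 39.5% of Il1b-high, 82.5% of younger and 0.319% of B cells, and in 74.0% of Il1b-low cells of library 3, against 48.9%, 88.2% and 1.01%. Without thinning it was found in 77.3% of Il1b-low and 55.7% of Il1b-high cells in library 2, with B cells at 1.35% and a median depth of 3808 UMIs.

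The Il1b-low limits also admitted barcodes that carried RNA of a second cell type. A barcode was called mixed, by a definition chosen after the data were seen, when the fixed markers of another leukocyte type gave at least 5 UMIs (Lyz2 not counted) or red cell genes held at least 1% of its UMIs. Mixed barcodes were 81 of 836 (9.69%, interval 7.77 to 11.9) and 56 of 420 (13.3%, 10.2 to 17.0) among Il1b-low cells, against 32 (1.99%) and 10 (3.10%) among Il1b-high cells and 27 (3.25%) and 44 (3.41%) among younger cells. They held 27.2% and 31.4% of the UMIs of the Il1b-low cells. Monocyte markers (Ccr2, Csf1r, Fn1 and others) put 45 and 36 barcodes in this class, T cell markers 15 and 7, B cell markers 10 and 6, NK cell markers 4 and 5, dendritic cell markers 4 and 3, and red cell genes 20 and 14, with some barcodes in several. The monocyte-marker UMIs fell into separate ranges, with 776 and 381 barcodes at 0 to 2 UMIs, 15 and 3 at 3 or 4, 1 and 3 at 5 to 11, and 44 and 33 at 12 or more.

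The 9 monocyte markers summed to 1112 and 1069 CPM in all Il1b-low cells, against 180 and 168 CPM in Il1b-high cells, and to 138 and 91.2 CPM without mixed barcodes, where Ace was at 0 in both libraries and C1qb in library 3. The 6 red cell markers summed to 20667 and 12239 CPM in all Il1b-low cells, against 4866 and 4060 CPM in Il1b-high cells, and to 1033 and 1091 CPM without mixed barcodes. Both falls follow from the definition of mixed barcodes, which used these same markers. Barcodes with monocyte markers were deep, with medians of 14318 and 17647 UMIs, and S100a8 and S100a9 held 7.61% and 7.42% of their UMIs. Mixed barcodes as a whole had more Il1b UMIs than the other Il1b-low cells, with medians of 7 and 5 against 3 in both libraries, but a lower Il1b share, at medians of 0.0731% against 0.114% in library 2 and 0.0550% against 0.0721% in library 3. Scrublet, a caller of doublets (droplets with more than 1 cell), marked 12 and 23 of the Il1b-low barcodes, each of them mixed. How far pairs of cells in 1 droplet, or cells that carry both sets of transcripts, make up the mixed barcodes was not tested.

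**Figure D2:**
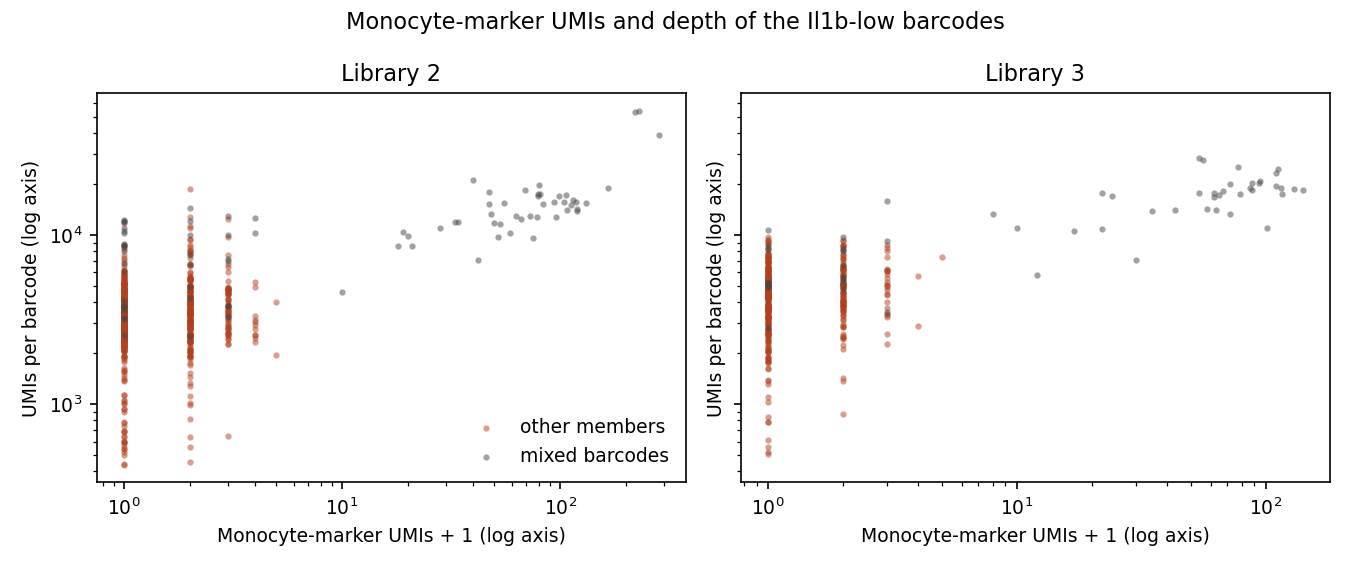
UMIs of monocyte markers plus 1 (x axis, log) against all UMIs (y axis, log) for each Il1b-low barcode of libraries 2 and 3, with mixed barcodes in grey. The 44 and 33 barcodes at 12 or more monocyte-marker UMIs stand apart to the upper right, and grey points at the left carry markers of other types or red cell genes.

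The genes at least 2-fold higher in Il1b-low than in Il1b-high cells in both libraries were, with few exceptions, those of the mixed barcodes. There were 157 such genes of 3031 measured (5.18%) and 8 that were at least 2-fold lower (0.264%), a gene being measured with at least 50 UMIs in both populations together and 30 CPM in the higher one, in each library. Of the 157, 154 in library 2 and 155 in library 3 had over 50% of their Il1b-low UMIs in mixed barcodes, with medians of 83.4% and 84.6%, against 26.8% and 32.4% over all measured genes. The 12 that led were Fn1, Vcan, Ms4a6c, Ccr2, S100a4, Ms4a8a, Lrp1, Ms4a4c, Lgals1, Pld4, Crip1 and Ms4a6d. Fn1, Ccr2 and Ms4a4c are among the markers that define mixed barcodes, and the other 9 are not. Fn1 encodes fibronectin, made by monocytes among blood cells, and stood at 190 and 218 CPM in all Il1b-low cells. With mixed barcodes left out it stood at 1.87 and 1.21 CPM, from 5 and 2 UMIs, against 1.60 and 3.62 CPM in Il1b-high cells. Vcan encodes the matrix proteoglycan versican and went the same way, at 75.9 and 102 CPM in all Il1b-low cells and 0.750 and 1.21 CPM without mixed barcodes, against 0.600 and 0.904 CPM in Il1b-high cells. Crip1, a small zinc-binding protein, stood at 270 and 393 CPM with the mixed barcodes, against 15.0 and 10.9 CPM without them. Against younger cells, 186 of 2886 genes were at least 2-fold higher (6.44%) and 6 at least 2-fold lower (0.208%), and Apoe and Alas2, a red cell enzyme, led the higher ones.

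Without mixed barcodes in any population, 755 and 364 Il1b-low, 1576 and 313 Il1b-high, and 805 and 1245 younger cells were left. Of 2766 genes, 2 were then at least 2-fold higher in Il1b-low than in Il1b-high cells in both libraries (0.0723%), and these were Adpgk and Ngp, which is a gene of the limits. Lower by at least 2-fold were 8 genes (0.289%), of which Il1b was used by the limits, Nod1, Clec4n, Entpd3 and Ahnak have gene names and the others are gene models without one. With mixed barcodes kept the lower genes also numbered 8, but only 4 were the same genes. Against younger cells 1 of 2564 genes was at least 2-fold higher (0.0390%) and 6 at least 2-fold lower (0.234%). The values that follow are for cells without mixed barcodes. In these the median log2 ratio over all 5633 genes with at least 20 UMIs was -0.14 in library 2 and -0.15 in library 3 against Il1b-high cells, and each gene is to be read against it. TMM scaling, which assumes that most genes do not differ, moves every ratio against Il1b-high cells by 0.13 in library 2 and 0.16 in library 3 and puts this median at -0.01 and 0.01.

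Mmp8, Retnlg, Cd177, Ifitm6 and Adpgk led the genes that were higher in Il1b-low than in Il1b-high cells, and all 5 were higher still in younger cells, in both libraries. Such a place between Il1b-high and younger cells was common, being found in both libraries for 49.3% of 2446 measured genes outside the limits. Mmp8 (chr9:7558456-7568485, GRCm38), the neutrophil collagenase of the specific granules, stood at 2194 CPM in Il1b-low, 1202 in Il1b-high and 3248 in younger cells of library 2. In library 3 it stood at 2298, 1409 and 3177 CPM. The log2 ratio of Il1b-low to Il1b-high cells was 0.87 (0.82 to 0.92) in library 2 and 0.71 (0.62 to 0.79) in library 3. Retnlg, which encodes a resistin-like protein of neutrophils, stood at 16411 CPM in Il1b-low, 9233 in Il1b-high and 25337 in younger cells of library 2, and at 27968, 16829 and 36991 CPM in library 3. Cd177, a surface glycoprotein stored in specific granules, had log2 ratios of 0.96 (0.75 to 1.17) and 1.28 (0.97 to 1.60) over Il1b-high cells. Ifitm6, of the interferon-induced transmembrane family, had 0.86 and 1.05. Adpgk, an ADP-dependent glucokinase, had the highest ratios of the 12 genes named on this side, 1.63 (1.25 to 2.01) and 1.40 (0.89 to 1.94), from 160 and 158 UMIs in Il1b-low cells.

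The other named genes on the higher side were Ly6c2, G6pdx, Lyz2, Ckap4, Hjurp, S100a6 and Tkt, with log2 ratios of 0.36 to 0.99. G6pdx and Tkt encode enzymes of the pentose phosphate pathway, which supplies NADPH. G6pdx stood at 187 and 181 CPM in Il1b-low cells, against 123 and 111 CPM in Il1b-high cells. Tkt stood at 222 and 376 CPM, against 158 and 236 CPM. Ly6c2 has a near-identical neighbour, Ly6c1, so that its counts are uncertain.

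Of the 8 given markers, Mmp8 is described above, and the others had log2 ratios between -0.31 and 0.61. S100a8 stood at 124375 and 135625 CPM in Il1b-low cells, 99105 and 102807 CPM in Il1b-high cells and 143679 and 156264 CPM in younger cells. S100a9 stood at 156139 and 157648 CPM in Il1b-low cells, against 126394 and 130735 CPM in Il1b-high cells. Since both genes took part in the choice of neutrophils, and in the total over which the Il1b share is taken, their levels are a description. Wfdc21, a WAP-domain protein, had log2 ratios of 0.44 and 0.29 over Il1b-high cells. Dgat1, the last enzyme of triglyceride synthesis, had 0.61 and 0.24. Fpr2, a receptor for formyl peptides and other ligands, had 0.42 in library 2 and 0.02 in library 3, and Cpd, carboxypeptidase D, 0.33 and -0.07. Il1f9, which encodes interleukin-36 gamma, had 0.10 (0.01 to 0.20) in library 2 and -0.31 (-0.50 to -0.12) in library 3. Fpr2 and Cpd had intervals above 0 in library 2 and across 0 in library 3.

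Genes lower in Il1b-low cells included a lectin, a retention receptor and a growth factor. Clec4n (chr6:123229843-123247021), which encodes the fungal pattern receptor dectin-2, stood at 42.7 and 13.9 CPM in Il1b-low cells, against 116 and 64.2 CPM in Il1b-high cells. Its log2 ratios were -1.44 (-1.75 to -1.15) and -2.21 (-2.96 to -1.51), with 114 and 23 UMIs in Il1b-low cells. Cxcr4 (chr1:128588199-128592293), the receptor for CXCL12, stood at 189 and 143 CPM in Il1b-low, 329 and 330 CPM in Il1b-high and 142 and 108 CPM in younger cells. Its log2 ratios over Il1b-high cells were -0.80 (-0.95 to -0.66) and -1.21 (-1.45 to -0.97). Fgl2, a fibrinogen-like protein, stood at 804 and 350 CPM in Il1b-low cells, against 1373 and 720 CPM in Il1b-high cells. Csf1, the macrophage growth factor, stood at 54.7 and 21.1 CPM, against 99.9 and 59.7 CPM, with 24.0 and 10.0 CPM in younger cells. Nod1, an intracellular sensor of peptidoglycan, had log2 ratios of -1.16 and -1.46. Gm2a, Gngt2, Lst1, Itga4, Ahnak, Ptma and Ccnd2 completed the 12, with log2 ratios of -0.72 to -1.75. Of these, Itga4 is the alpha-4 integrin chain, at 106 and 93.6 CPM in Il1b-low cells and 197 and 175 CPM in Il1b-high cells. Of the 12 genes, 11 lay between Il1b-high and younger cells in both libraries, beside 49.3% of measured genes outside the limits. The 12 were picked as lower than in Il1b-high cells, which the measured genes were not.

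**Figure D3:**
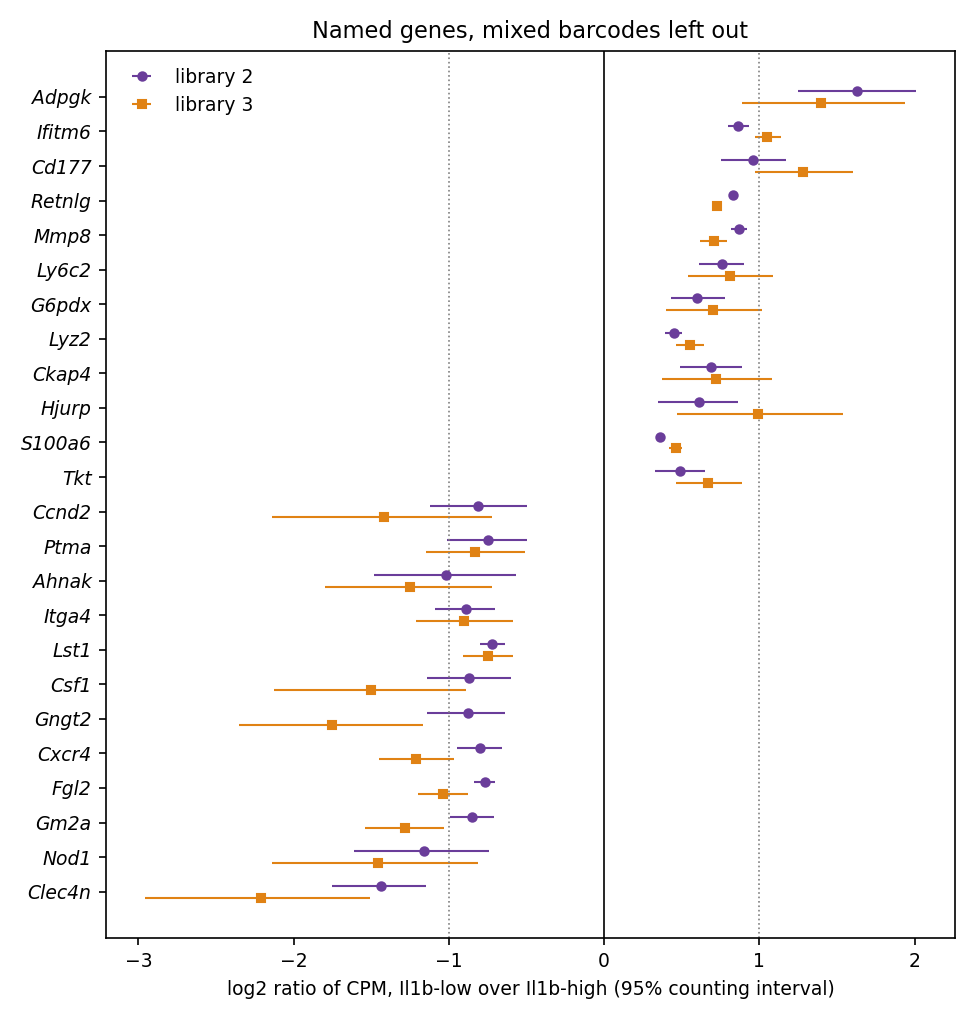
log2 ratio of CPM, Il1b-low over Il1b-high (x axis), for the 12 highest and 12 lowest named genes without mixed barcodes, with 95% counting intervals, in library 2 (circles) and library 3 (squares). Adpgk lies above 2-fold (dotted lines) and Clec4n, Nod1 and Ahnak lie below it in both libraries, and each other gene lies within 2-fold in at least 1 library.

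Promoters are shown for Il1b, which set the limit, for Mmp8 and Retnlg, which were higher in Il1b-low cells, and for Cxcr4, which was lower. They are the RefSeq sequences (GRCm38.p6) of 250 bases before to 50 bases after the gene start, read on the strand of the gene: Il1b at chr2:129371090-129371389 (minus strand), Mmp8 at chr9:7558179-7558478 (plus), Retnlg at chr16:48872358-48872657 (plus) and Cxcr4 at chr1:128592250-128592549 (minus). Capitals mark matches, on either strand, to TATAAA, to TTGCNNAA (bound by C/EBP factors of the granulocyte lineage) or to GAGGAAGT (bound by ETS factors such as PU.1).
Il1b: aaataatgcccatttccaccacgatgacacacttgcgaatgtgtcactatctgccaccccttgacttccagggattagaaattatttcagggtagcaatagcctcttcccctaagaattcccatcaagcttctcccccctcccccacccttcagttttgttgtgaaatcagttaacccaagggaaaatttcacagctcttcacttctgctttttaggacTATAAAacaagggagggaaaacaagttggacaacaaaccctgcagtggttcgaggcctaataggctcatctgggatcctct
Mmp8: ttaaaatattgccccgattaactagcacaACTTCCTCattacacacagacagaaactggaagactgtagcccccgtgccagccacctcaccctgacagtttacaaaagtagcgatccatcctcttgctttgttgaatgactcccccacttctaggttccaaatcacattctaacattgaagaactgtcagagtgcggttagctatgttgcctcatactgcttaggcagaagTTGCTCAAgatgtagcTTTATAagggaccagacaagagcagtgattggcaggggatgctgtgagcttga
Retnlg: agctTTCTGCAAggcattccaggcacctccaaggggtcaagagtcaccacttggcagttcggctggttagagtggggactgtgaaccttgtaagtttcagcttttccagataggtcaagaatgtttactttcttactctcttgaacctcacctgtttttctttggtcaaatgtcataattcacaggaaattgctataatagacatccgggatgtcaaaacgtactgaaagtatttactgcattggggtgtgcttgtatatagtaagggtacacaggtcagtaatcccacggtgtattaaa
Cxcr4: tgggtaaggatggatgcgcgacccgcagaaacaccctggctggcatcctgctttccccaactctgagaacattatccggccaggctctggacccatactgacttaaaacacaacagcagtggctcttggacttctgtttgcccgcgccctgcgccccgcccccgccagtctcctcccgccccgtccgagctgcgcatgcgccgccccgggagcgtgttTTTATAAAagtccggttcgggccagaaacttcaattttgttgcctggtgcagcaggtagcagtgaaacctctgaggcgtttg
The Mmp8 window held 3 matches, to GAGGAAGT (opposite strand), TTGCNNAA and TATAAA (opposite strand) in that order, and the Retnlg window 1, to TTGCNNAA (opposite strand). The Il1b window held TATAAA, and the Cxcr4 window held it on both strands as 1 overlapping run. Over 32851 mouse promoters of the same length, TATAAA was found in 13.6%, TTGCNNAA in 10.8% and GAGGAAGT in 3.20%. These shares are per promoter, whereas a gene is counted here when any of its promoters holds the match, so the counts are not on the same scale as the shares. All 12 genes on the higher side were in the table, and TATAAA was found for 3 of them (Cd177, Ifitm6 and Mmp8), TTGCNNAA for 3 (Hjurp, Mmp8 and Retnlg) and GAGGAAGT for 2 (Ly6c2 and Mmp8). On the lower side, 8 of 12 were in the table and TATAAA was found for 1 (Cxcr4), TTGCNNAA for 1 (Nod1) and GAGGAAGT for none. TGANTCA (AP-1) was found in 7.81% of promoters, for none on the higher side and for Fgl2 on the lower, and the NF-kappaB consensus in 4.51%, for none and for Csf1.

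Several of these genes were ordered step by step by the Il1b share on both sides of the limit, and others were not. Mature neutrophils without mixed barcodes were split by their Il1b share into 0, above 0 to 0.1%, 0.1 to 0.2%, 0.2 to 0.4% and 0.4% or more, with 83, 244, 428, 762 and 814 cells in library 2 and 69, 154, 141, 156 and 157 in library 3. Mmp8 stood at 3155, 2426, 1915, 1445 and 935 CPM over these steps in library 2, and at 2819, 2289, 2041, 1594 and 1181 CPM in library 3. Retnlg, Cd177, S100a8 and S100a9 were likewise lower at each step in both libraries. Cxcr4 stood at 156, 174, 202, 235 and 431 CPM in library 2 and at 86.1, 118, 206, 237 and 445 CPM in library 3. Fgl2, Marcks, Csf3r and H2-Q10 were also higher at each step in both libraries, H2-Q10 being one of a family of near-identical class I genes with uncertain counts. Ifitm6 was lower at each step in library 2 but not in library 3, at 3236, 3361, 2063, 1708 and 991 CPM. Clec4n was higher at each step in library 3 but not in library 2, at 36.0, 30.5, 50.5, 84.2 and 151 CPM, and Csf1 had no steady order in either. Within the Il1b-low cells alone, Mmp8 in cells with no Il1b UMI was thus 3155 and 2819 CPM, against 1915 and 2041 CPM in those nearest the limit. S100a8 and S100a9 also count in the total over which the Il1b share is taken, so more of their UMIs lower that share. Since the cells were sorted by Il1b and a zero is more often seen in shallow cells, these values describe the cells and carry no test.

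**Figure D4:**
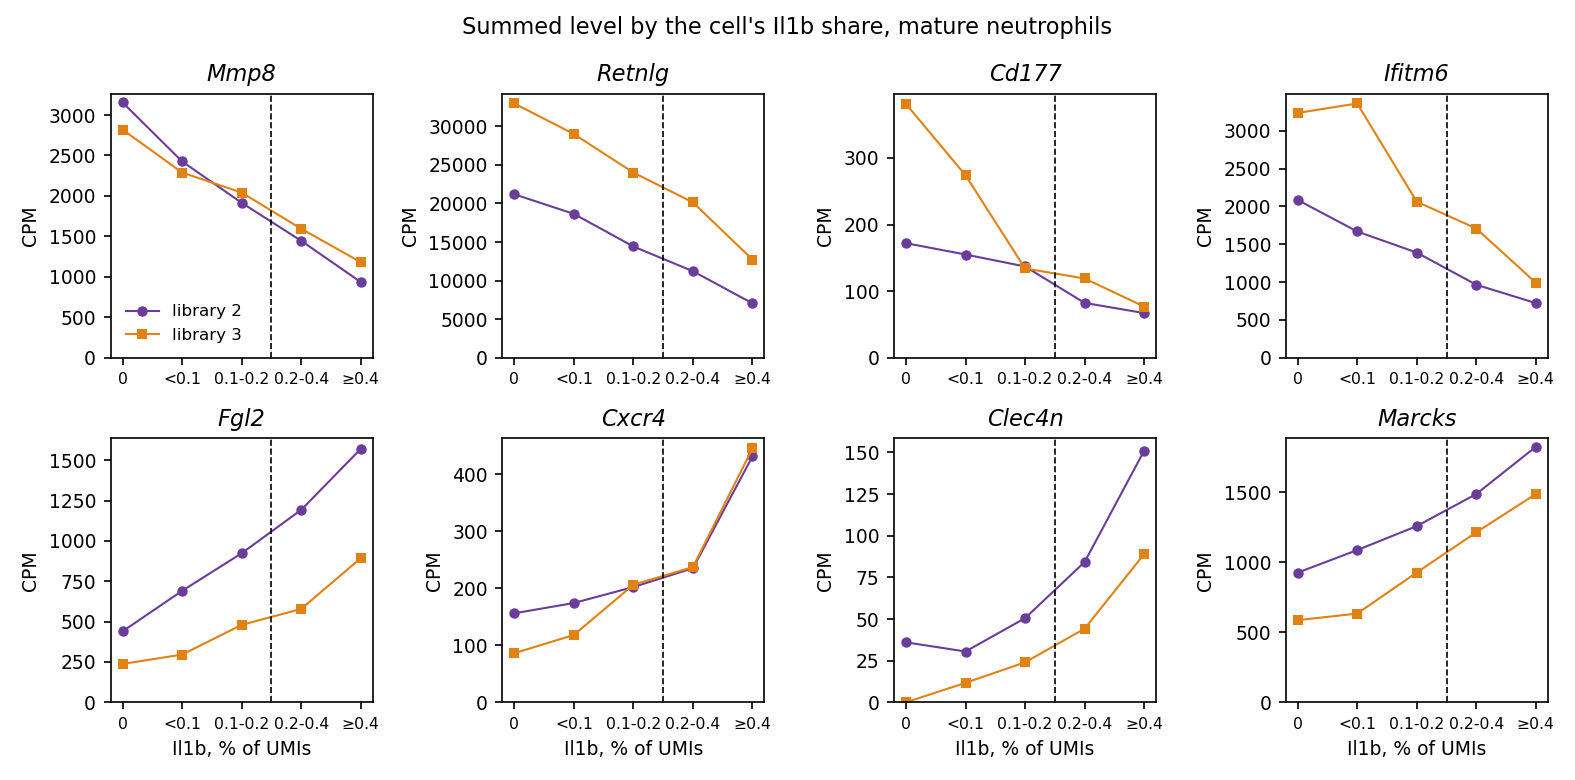
Summed CPM (y axes, from 0) of 8 genes in mature neutrophils without mixed barcodes, by the cell's Il1b share in percent (x axes), for library 2 (circles) and library 3 (squares), with the 0.2% limit dashed. Mmp8, Retnlg and Cd177 are lower and Fgl2, Cxcr4 and Marcks higher at each step in both libraries, and no step at the limit stands out.

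Gene lists were compared by role. Medians are log2 ratios of Il1b-low to Il1b-high cells in libraries 2 and 3, beside -0.14 and -0.15 for all measured genes, and counts of genes higher or lower in both libraries are given with their number under TMM scaling. Of all measured genes 16.3% were higher and 50.3% lower in both libraries (29.6% and 30.7% with TMM scaling), and 11 of 5633 were at least 2-fold higher (0.195%) and 27 at least 2-fold lower (0.479%) in both libraries. With mixed barcodes kept these counts were 602 of 6941 (8.67%) and 15 (0.216%). Of the secondary granule genes, 1 of 12 measured was at least 2-fold higher, Ngp, which the limits used, with a median of 0.31 and 0.21 and 6 higher and 4 lower in both libraries (9 and 2 with TMM scaling). Cybb, the heme-bearing subunit of the NADPH oxidase, stood at 46.5 and 57.4 CPM in Il1b-low cells, 29.4 and 19.9 CPM in Il1b-high cells and 81.4 and 104 CPM in younger cells. The WFDC and stefin inhibitors had a median of 0.38 and 0.37, with 8 of 11 higher in both libraries (8 with TMM scaling) and Stfa2 at least 2-fold higher. Padi4, which converts arginines of histones to citrulline in extracellular traps, had log2 ratios of 0.49 and 0.72. Glycolysis genes had a median of 0.13 and 0.04, with 13 of 26 higher and 4 lower in both libraries (20 and 1 with TMM scaling) and none past 2-fold, and Pygl, liver glycogen phosphorylase, had 0.27 and 0.36.

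On the other side stood inducible genes. All 15 measured immediate early genes were lower in Il1b-low cells in both libraries (13 with TMM scaling), with a median of -0.29 and -0.52 and none past 2-fold. Btg1 stood at 1877 and 1095 CPM in Il1b-low cells, against 2514 and 1870 CPM in Il1b-high cells, and Junb, an AP-1 subunit, at 1200 and 903 CPM, against 1538 and 1220 CPM. Among NF-kappaB targets and feedback genes 14 of 18 were lower in both libraries (12 with TMM scaling), with a median of -0.31 and -0.49. Nfkbia, the feedback inhibitor, had log2 ratios of -0.48 and -0.56, and Icam1, past 2-fold, stood at 3.75 and 4.83 CPM in Il1b-low cells, against 7.61 and 15.4 CPM in Il1b-high cells. Cytokines and chemokines had a median of -0.35 and -0.56, with Ccl4 at -1.06 and -0.98. In the interleukin-1 family, which holds the Il1b of the limit, 11 of 16 were lower in both libraries. With TMM scaling 4 of 16 were lower and 2 higher. That share lower is under the 30.7% of all measured genes, so the count is not read as a result about the family. Nlrp3, the inflammasome sensor, had -0.45 and -0.43, and Il1rap, the shared receptor chain, -0.31 and -0.53. Il1r2, the decoy receptor, had -0.25 and -0.14, the second of which turns above 0 with TMM scaling.

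Of the glucocorticoid-induced genes 12 of 15 were lower in both libraries (8 with TMM scaling), Tsc22d3 at -0.35 and -0.58 and Mt1 past 2-fold. Of the apoptosis and survival genes 15 of 18 were lower (8 with TMM scaling), and Pmaip1, which encodes the BH3-only protein Noxa, was past 2-fold at 13.9 and 4.83 CPM in Il1b-low cells, against 36.4 and 21.7 CPM in Il1b-high cells. The chemoattractant receptors had a median of -0.23 and -0.30, with Cxcr2, which chose the cells, at -0.14 and -0.24. Myeloid transcription factors were lower in 24 of 26 (14 with TMM scaling), with Xbp1 at -0.56 and -0.68. Interferon-stimulated genes lay at the level of all genes, with a median of -0.13 and -0.12, 18 of 36 lower and 5 higher in both libraries (13 and 13 with TMM scaling, which puts the median at 0.00 and 0.04). Circadian clock genes could be measured for 6 of 19 and lay at -0.26 and -0.24. Primary granule genes could be measured for 3 of 8, at -0.47 and 0.36, with the medians in opposite directions.

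**Figure D5:**
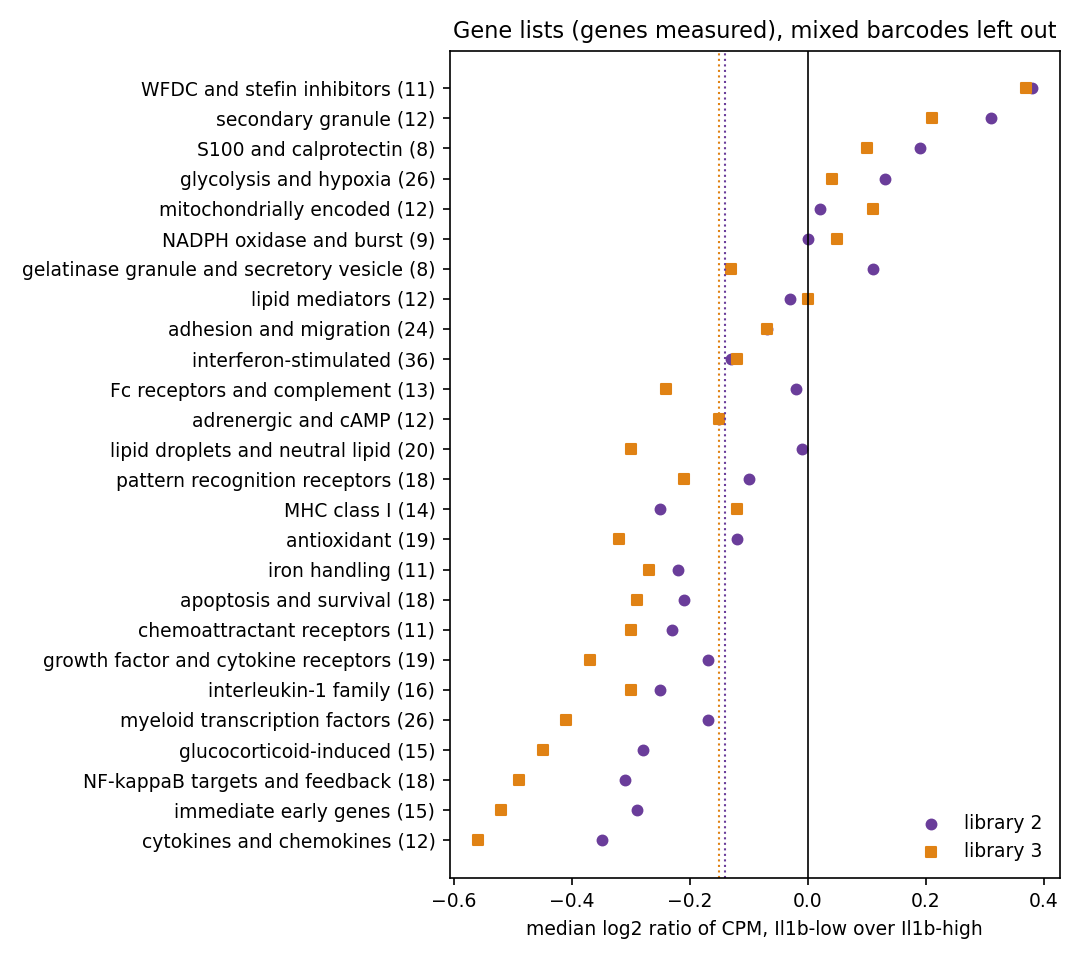
Median log2 ratio of CPM, Il1b-low over Il1b-high (x axis), for each of 26 gene lists with at least 8 measured genes (number in brackets) without mixed barcodes, in library 2 (circles) and library 3 (squares), with the medians of all measured genes dotted. WFDC and stefin inhibitors lie at 0.38 and 0.37 and cytokines and chemokines at -0.35 and -0.56.

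Set beside younger neutrophils, the Il1b-low cells had lower Itgb2l, Gpr27 and Serpinb1a and higher Fgl2, Id2 and platelet genes. These values share the Il1b-low cells with those above. The median log2 ratio of all genes with at least 20 UMIs was 0.15 in library 2 and 0.21 in library 3, and TMM scaling moves every ratio against younger cells by -0.16 and -0.29. Itgb2l, a beta-2 integrin-like chain, stood at 11.2 and 22.9 CPM in Il1b-low cells, against 33.5 and 58.9 CPM in younger cells, with log2 ratios of -1.57 and -1.36. Gpr27, an orphan receptor, had -1.66 and -1.29. Serpinb1a, an inhibitor of neutrophil elastase, had -1.20 and -1.49. Ifitm6, Cd177, Cybb, Ggt1 and Capg were the other named genes on the lower side. On the higher side, Fgl2 had 0.80 and 0.94 and Id2, an inhibitor of DNA binding by helix-loop-helix factors, 0.82 and 1.01. Pf4, Nrgn, Clec1b and Myl9, known from platelets, had 0.50 to 0.69, and the 6 platelet markers summed to 2614 and 2908 CPM in Il1b-low cells, 2519 and 2684 CPM in Il1b-high cells and 1792 and 1767 CPM in younger cells. The part of platelets bound to cells in these values was not tested.

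The Il1b-low cells differed among themselves. Mmp8, Wfdc21, Retnlg, Lcn2 and Cd177, a set picked after their values were seen and dominated by Retnlg, together held 2.42% of UMIs in the median cell of library 2, with 0.690% and 4.97% at the 10th and 90th percentiles, and 3.78% with 1.32% and 6.44% in library 3. The Il1b-high cells overlapped with them, at 1.39% (0.358% to 3.46%) and 2.03% (0.450% to 4.69%). S100a8 and S100a9 together held 27.8% (12.7% to 36.4%) and 29.1% (16.5% to 36.9%) of UMIs in Il1b-low cells. Interferon-stimulated genes held 0.266% in the median Il1b-low cell of library 2 and 4.94% in the highest, against 0.326% and 1.87% in library 3.

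Between the libraries, Il1b-low cells of library 2 had lower stefin A genes and higher Jaml, Retn and Il1rn. These differences were not particular to them: Stfa2, Stfa3, Jaml, Retn and Il1rn went the same way in Il1b-high and younger cells. With mixed barcodes left out, 49 of 2917 genes (1.68%) were at least 2-fold higher in library 2 than in library 3 and 31 (1.06%) at least 2-fold lower, and with them 41 of 3287 (1.25%) and 35 (1.06%). Stfa2, a stefin A that inhibits cathepsins, stood at 15.4 CPM in Il1b-low cells of library 2 and 241 CPM in those of library 3, a log2 ratio of -3.97 (-4.47 to -3.50). One cell held 39.0% of its 41 UMIs in library 2 and 12.8% of its 399 UMIs in library 3. Stfa3 had -2.88 and BC100530, of the same cluster, -2.54, and the near-identical sequences of these genes make their single counts uncertain. The other neutrophils showed the same order: Stfa2 stood at 2.40 CPM in Il1b-high cells of library 2 and 54.3 CPM in those of library 3, and at 11.8 and 181 CPM in younger cells. Lipg, endothelial lipase, had a log2 ratio of -1.78 (-2.19 to -1.39) from 80 and 171 UMIs, and Nos2, inducible nitric oxide synthase, -1.88 (-2.52 to -1.26) from 32 and 73 UMIs.

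Jaml, an adhesion molecule of migrating neutrophils, stood at 398 CPM in library 2 and 106 CPM in library 3, a log2 ratio of 1.92 (1.68 to 2.15). In libraries 2 and 3 it stood at 416 and 165 CPM in Il1b-high cells and at 302 and 80.6 CPM in younger cells. Il1rn, the interleukin-1 receptor antagonist, stood at 180 and 62.8 CPM (1.52, 1.21 to 1.84), with 187 and 108 CPM in Il1b-high and 139 and 53.8 CPM in younger cells. Retn, resistin, stood at 82.8 and 25.4 CPM, and Slc7a11, the cystine transporter, at 136 and 50.1 CPM. Chil3, a chitinase-like protein, depended on the mixed barcodes, which held 81.0% and 95.9% of its UMIs: it stood at 324 CPM in library 2 and 103 CPM in library 3 without them, and at 1246 and 1717 CPM with them. Without mixed barcodes Chil3 went the same way in Il1b-high cells, at 360 CPM in library 2 and 141 CPM in library 3. In younger cells it went the other way, at 216 CPM in library 2 and 330 CPM in library 3. Hcar2, a receptor for nicotinic acid and beta-hydroxybutyrate, stood at 67.9 and 22.9 CPM. Retn, Slc7a11, Hcar2, Lipg and Nos2 differed between the libraries in the same direction in Il1b-high and in younger cells. Retnlg stood at 16411 CPM in library 2 and 27968 CPM in library 3. It was also lower in library 2 in Il1b-high cells (9233 and 16829 CPM) and in younger cells (25337 and 36991 CPM). Mmp8 stood at 2194 and 2298 CPM in Il1b-low cells. The group of mice, the library and its depth cannot be told apart in these values.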

How the data were processed

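Blood leukocytes of 3 groups of mice (Con, SD24h and SD48h) were profiled in 3 droplet libraries with 10x Genomics 3' v3 chemistry. The authors deposited 1 matrix of raw UMI counts per gene and barcode, made with Cell Ranger 6.0.2 per the file headers, whereas the submitters' processing notes list Cell Ranger 4.0.0, Trimmomatic 0.39, Seurat 3.0, R 4.0.2 and GRCm38. The calling of cells from barcodes is not stated in these sources. Of 22204 barcodes, 18885 passed the filter. No sample of the labels could be matched to a barcode ending, so cells were grouped by ending only. Groups of the sleep restriction condition named in the series text were not analysed here.

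UMIs were summed per population and library (Python 3.11.15, scipy 1.17.1, pandas 2.3.3), divided by total UMIs, and compared as ratios with exact conditional 95% intervals. The code was run on simulated sums that hold counting error only. That run cannot show how the intervals fare with spread between cells. The Il1b-low cells held 3663718 and 2413592 UMIs in libraries 2 and 3. With 1 library per group no test across samples was possible. Members, gene lists and markers were chosen with earlier results of these data known. Named genes were the given markers, the genes of the limits, and, among measured genes with the same direction in both libraries, the 12 highest and 12 lowest against Il1b-high cells, the 8 and 8 against younger cells and the 8 and 8 between libraries, ranked by the bound nearest 0, without genes of the limits, haemoglobin, mitochondrial, immunoglobulin, T cell receptor and unnamed genes. From each list the rule took genes past 2-fold or else up to 4 with the most UMIs. The rule was applied to all members and again without mixed barcodes. Padi4, Nlrp3, Il1rap, Il1r2, Tsc22d3, Xbp1 and BC100530 fall outside it and were chosen after their values were seen.

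Doublets were called with Scrublet (scanpy 1.11.5): 122 of 5978 cells (2.04%) in library 2 and 213 of 5785 (3.68%) in library 3, and 6 of 7122 (0.0842%) in library 1, where the caller did not work. They were kept. Alternatives covered the cell filter, the limits, scaling with TMM factors (edgeR 4.0.16, used for scaling only) or totals without S100a8 and S100a9, the mean of each cell's CPM, thinning to 1000 UMIs, count filters and doublets. Leaving out mixed barcodes, leaving out the 122 barcodes whose sequence (61 in all) occurs in more than 1 library, of which 4 were Il1b-low cells, and TMM scaling without mixed barcodes, were added after the data were seen. Gene positions are from GENCODE M21 (GRCm38), which holds 31011 of the 31053 gene IDs of the matrix.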

Additional observations from a re-analysis of the deposited data

Results flagged for a closer look

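Among barcodes ending in 1, which the limits exclude, 231 met every other limit for Il1b-low mature neutrophils, with 271 Il1b-high and 2 younger cells. They drew attention as a signal in barcodes that the comparisons do not use. They held 989 CPM of Il1b, against 3919 CPM in the Il1b-high barcodes of the same library, both without mixed barcodes. Mmp8 stood at 691 CPM in the Il1b-low and 449 CPM in the Il1b-high barcodes of library 1, a log2 ratio of 0.62 (0.41 to 0.83), and Cxcr4 at 314 and 386 CPM, a ratio of -0.30 (-0.57 to -0.03). Cd177 stood at 39.7 and 46.9 CPM, with an interval across 0 (-1.06 to 0.55).

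With mixed barcodes left out, 6 genes were higher in Il1b-low than in Il1b-high cells of one library and lower in the other, with both counting intervals clear of 0, which is what drew attention to them. They were Il1f9, Txn1, Rab8b, Ccl6, Sipa1l1 and Rac2, none past 2-fold in either library. Sipa1l1 had the widest spread, with log2 ratios of 0.40 in library 2 and -0.48 in library 3, from 84.0 and 64.0 CPM in Il1b-low cells and 63.4 and 89.5 CPM in Il1b-high cells. Ccl6, a chemokine, had 0.22 and -0.14. With TMM scaling, chosen after the data were seen for these cells, 3 of the 6 stayed opposite (Il1f9, Rab8b and Sipa1l1), and Txn1, Ccl6 and Rac2 were above 0 in both libraries. The difference between the libraries was not tested.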

How the results depend on the processing

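No paired analysis was possible because each group has 1 library and no barcode ending is tied to a group. Il1b-low cells numbered 378 and 271 in libraries 2 and 3 with Il1b under 0.1%, 1619 in library 2 with Il1b under 0.4%, and 232 and 770 in library 3 with Ly6g, Prok2, Ngp and Camp under 0.05% and under 0.2%. With Il1b taken as a share of UMIs other than S100a8 and S100a9, they numbered 586 in library 2 and 355 in library 3. Of genes at least 2-fold higher against Il1b-high cells, 157 in the values as reported, there were 602 with at least 20 UMIs and no CPM filter, 260 with cells between 0.1% and 0.4% Il1b left out, 21 with the mean of each cell's CPM, 14 after thinning to 1000 UMIs and 2 without mixed barcodes. The 8 lower genes became 15, 37, 13 (TMM scaling) and 1 (thinning). Against younger cells, 186 higher became 896 with at least 20 UMIs, 105 with TMM scaling, 42 with the mean of each cell's CPM, 28 after thinning and 1 without mixed barcodes, and 6 lower became 15 with at least 20 UMIs, 20 with TMM scaling and 11 with totals that omit S100a8 and S100a9. Between libraries 2 and 3, 41 higher became 204 with at least 20 UMIs and 66 after thinning, and 35 lower became 319, 18 with TMM scaling and 17 without Scrublet doublets. The cell filter of 500 genes and 5% mitochondrial UMIs, and leaving out shared barcodes, moved none of these counts by over 1.5 times.

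Signs were followed for the lists and for the genes named against Il1b-high cells. Among those past 2-fold in both libraries with all members, the sign of some log2 ratios turned when mixed barcodes were left out and in no other setting run. Smaller values also turned sign with scaling: without mixed barcodes, TMM factors put the medians of the adhesion (0.06 and 0.09) and IFITM (0.09 and 0.09) lists above 0 in both libraries, those of the gelatinase granule (0.03), MHC class I (0.04) and adrenergic (0.01) lists above 0 in library 3, and those of the pattern recognition (0.03), antioxidant (0.01), lipid mediator (0.10), lipid droplet (0.12) and Fc receptor (0.11) lists above 0 in library 2. In library 3 the log2 ratio against Il1b-high cells became -1.58 for Fn1, -0.58 for Ms4a6c, Ms4a8a and Lrp1, -0.17 for Ccr2, -1.68 for S100a4 and -1.17 for Ms4a4c. In libraries 2 and 3 it became -1.26 and -1.90 for Pld4, -0.55 and -0.66 for Crip1, and -2.55 and -1.0 for Ms4a6d. The median of the primary granule list became -0.47 in library 2. These ratios rest on 0 to 40 UMIs in the Il1b-low cells, a count of 0 being set to 3 UMIs for the value, and for Ms4a8a both populations were at 0, so that its value is no measured ratio. Of these genes, only S100a4 in library 3 (-3.22 to -0.30) and Crip1 in library 2 (-1.11 to -0.02) had intervals clear of 0. For the others of these genes the excess was gone and no opposite direction was measured. Outside this set, Chil3 turned from 1.82 and 3.67 to -0.15 (-0.27 to -0.03) and -0.45 (-0.77 to -0.13), from 865 and 171 UMIs. Irf8 turned in library 3 to -3.58 (-9.05 to -0.68), from 1 UMI. With mixed barcodes kept, TMM factors shifted the Il1b-low cells by -0.12 and -0.26 on the log2 scale, the Il1b-high cells by -0.04 and -0.07 and the younger cells by 0.17 and 0.32. Depth limits genes under about 30 CPM, and intervals cover counting error only.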
